A study of Homo sapiens with 11 samples.

Results

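The regions described here are intergenic enhancers of HK2 cells. They are stretches of the genome that carried H3K27ac and not H3K4me3, that lay outside the body of every protein-coding gene, more than 2 kb from any annotated transcription start site (TSS), and no farther than 200 kb from a protein-coding TSS. HK2 is an immortalised line derived from human kidney proximal tubule cells. It was grown in serum-containing medium with a low amount of DMSO and studied in 1 condition, without a treated group. H3K27ac, H3K4me3 and H3K27me3 were mapped by ChIP-seq, 2 replicates per mark, and RNA was sequenced in 2 libraries. Nothing in the labels says whether replicates came from separate cultures, so the spread between them may be technical.

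The regions were selected on the deposited H3K27ac and H3K4me3 peaks. Chromosomes 1 to 22 and X of hg19 were cut into 200-bp bins, a mark was on where peaks covered at least 100 bp of the bin in both replicates, and adjacent bins with H3K27ac on and H3K4me3 off were joined. Of 29531 such regions, 7287 (24.7%) were intergenic enhancers by this rule. With the marks of replicate 1 alone, the same rule gave 14055 intergenic enhancers, and with those of replicate 2 alone 7620. A further 9695 lay within 2 kb of a TSS (start-near), 10806 had their midpoint in a protein-coding gene (intragenic), and 1743 lay over 200 kb from any protein-coding TSS (gene-desert). Positions, widths and the presence of H3K27ac follow from the rule and are given as a description. H3K27me3, RNA and DNA sequence were not used by the rule.

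Enhancers are stretches of DNA to which transcription factors bind and from which they raise the activity of promoters that can lie far away on the same chromosome. Nucleosomes beside a bound enhancer carry H3K27ac, an acetyl group on lysine 27 of histone H3, whereas H3K4me3 is typical of promoters. H3K27me3 is placed on the same lysine as H3K27ac by Polycomb complexes and is typical of silenced genes.

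The sequences that carry the main pattern are printed first. Each is a stretch of the GRCh37 reference read on the plus strand, 5′ to 3′. Capitals mark the letters TGANTCA, recognised by the AP-1 family of JUN and FOS proteins, or ACATTCC on either strand, recognised by the TEAD factors through which YAP acts. The first set holds 300-base windows at the midpoint of the enhancer nearest to KRT19, PKM and CCN1, chosen from the named genes because the window holds such letters.

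KRT19, chr17:39686451-39686750: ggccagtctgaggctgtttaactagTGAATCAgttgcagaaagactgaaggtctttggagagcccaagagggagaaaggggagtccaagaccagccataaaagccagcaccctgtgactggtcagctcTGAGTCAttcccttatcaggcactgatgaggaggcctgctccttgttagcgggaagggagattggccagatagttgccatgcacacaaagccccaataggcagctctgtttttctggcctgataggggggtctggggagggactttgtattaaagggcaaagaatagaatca

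PKM, chr15:72529751-72530050: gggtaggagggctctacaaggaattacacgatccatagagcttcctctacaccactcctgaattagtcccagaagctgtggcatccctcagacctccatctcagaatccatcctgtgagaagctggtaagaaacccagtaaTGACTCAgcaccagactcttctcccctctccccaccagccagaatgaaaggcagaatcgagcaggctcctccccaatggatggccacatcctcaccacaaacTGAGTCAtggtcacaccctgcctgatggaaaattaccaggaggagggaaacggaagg

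CCN1, chr1:86071351-86071650: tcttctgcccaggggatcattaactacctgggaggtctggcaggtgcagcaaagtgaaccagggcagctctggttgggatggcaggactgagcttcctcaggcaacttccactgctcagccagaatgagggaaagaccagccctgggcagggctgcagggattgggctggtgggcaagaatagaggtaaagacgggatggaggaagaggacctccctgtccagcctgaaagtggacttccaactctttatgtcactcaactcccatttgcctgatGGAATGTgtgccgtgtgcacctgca

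The second set shows 200-bp gaps between neighbouring enhancers, where H3K27ac was off in 1 or both replicates. TSPAN2, SLC39A9 and MDFIC are the nearest genes of 3 gaps with 3 AP-1 matches, the most found among the gaps of this length that were searched, and the JUN gap has 2. The gaps were picked on those counts.

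TSPAN2 gap, chr1:115722201-115722400: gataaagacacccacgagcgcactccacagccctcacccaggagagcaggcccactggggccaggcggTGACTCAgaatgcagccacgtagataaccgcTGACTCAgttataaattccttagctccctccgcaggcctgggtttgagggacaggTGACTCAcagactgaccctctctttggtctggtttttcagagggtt

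SLC39A9 gap, chr14:69931601-69931800: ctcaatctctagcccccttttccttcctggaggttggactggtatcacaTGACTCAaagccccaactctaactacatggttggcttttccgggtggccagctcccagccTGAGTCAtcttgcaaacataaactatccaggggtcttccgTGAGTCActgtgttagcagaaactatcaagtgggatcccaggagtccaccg

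MDFIC gap, chr7:114529801-114530000: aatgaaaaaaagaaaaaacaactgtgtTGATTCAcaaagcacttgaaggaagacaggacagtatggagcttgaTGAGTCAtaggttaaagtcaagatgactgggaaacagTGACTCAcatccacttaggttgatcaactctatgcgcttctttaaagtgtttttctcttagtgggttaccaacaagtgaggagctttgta

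JUN gap, chr1:59347201-59347400: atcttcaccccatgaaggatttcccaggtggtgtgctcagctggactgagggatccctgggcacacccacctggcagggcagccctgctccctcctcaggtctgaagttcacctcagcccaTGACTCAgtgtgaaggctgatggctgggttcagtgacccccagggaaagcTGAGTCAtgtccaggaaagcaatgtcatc

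The intergenic enhancers covered 7.69 Mb. Their median width was 600 bp, with an interquartile range of 400 to 1200 bp, 765 were a single 200-bp bin and 14 were at least 10 kb wide. The median distance from midpoint to the nearest protein-coding TSS was 35.8 kb (interquartile range 14.4 to 81.2 kb). By distance, 2418 lay at 2 to 20 kb, 1967 at 20 to 50 kb, 1554 at 50 to 100 kb and 1348 at 100 to 200 kb. Relative to the direction of the nearest gene, 4545 (62.4%) lay upstream and 2742 downstream, outside the gene. At the limits of the rule, the closest enhancer was 2004 bp from any annotated TSS. The farthest was 199833 bp from its nearest protein-coding TSS. By the same measures, the nearest regions left out lay at 1998 and 200044 bp. Only the midpoint was required to be away from a TSS, and 16 wide enhancers contained an annotated TSS, 4 of them of a protein-coding gene.

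The replicates of a mark differed in their peaks. On the chromosomes used, H3K27ac had 57521 peaks of median width 1359 bp in replicate 1 and 38484 peaks of median width 658 bp in replicate 2. H3K4me3 had 28550 and 73450 peaks, and H3K27me3 45855 and 32629. Of the intergenic enhancers, 28.1% overlapped an H3K4me3 peak of replicate 1 and 4.08% one of replicate 2, since the rule left out bins with H3K4me3 in both replicates only, and 71.1% overlapped none. Chromosome 20, with 2.08% of the bases, held 8.13% of H3K4me3 peaks of replicate 2 and 7.84% and 13.0% of H3K27me3 peaks, against 2.75% and 3.05% of H3K27ac peaks. It also had the most intergenic enhancers per Mb, 3.998, with 1.40 on chromosome 13 the lowest and 2.40 over all. The part of these replicate and chromosome differences in the results below was not tested.

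The label of the cells was compared with known markers. Of 14 proximal tubule genes, 4 reached 1 FPKM in both libraries. FPKM, fragments per kilobase of transcript relative to all mapped fragments, is a level corrected for length, summed here over the transcripts of a gene, and genes that reach 1 in both libraries are called expressed below. Among them were PAX8, GGT1 and SLC5A2. The endocytic receptor LRP2, the anion transporters SLC22A6 and SLC22A8 and the transcription factor HNF4A were listed at 0 in both. Of 6 epithelial genes, 5 passed, the exception being CDH1 (E-cadherin) at 0.210 and 0.283. Of 3 leukocyte and 5 loop, distal and collecting duct markers, none reached 1 in both libraries, nor did the endothelial genes VWF and CDH5, while PECAM1 had no value. COL1A1, a fibroblast marker, stood at 40.3 and 39.9, and PODXL, a podocyte marker, at 4.41 and 5.85. In bulk RNA, fewer cells of a type and less RNA per cell cannot be told apart.

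AP-1 letters were more frequent at intergenic enhancers than 5 kb away. They were denser still in short gaps between neighbouring enhancers, a pattern that depended on the replicate and is described further on. In the 400 bp centred on the midpoint, TGANTCA on either strand was present in 1608 of 7287 windows (22.1%, Wilson 95% interval 21.1 to 23.03%). Over all 29531 regions with H3K27ac on and H3K4me3 off the share was 19.3%, and it was 16.2% at start-near, 19.6% at intragenic and 23.3% at gene-desert regions. At positions moved by 5 kb to either side of each midpoint, some of which lie in neighbouring enhancers, the share was 12.1%. H3K4me3 regions had the letters in 4.23% of windows. Intervals of this kind cover counting error only, and regions are not replicates.

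Wider enhancers had a higher share with AP-1 letters. It was 14.0% (12.8 to 15.4%) in those of 200 to 400 bp, 19.1% (17.6 to 20.7%) at 600 to 1000 bp, 36.6% (33.7 to 39.6%) at 1200 to 1800 bp and 35.2% (32.4 to 38.1%) at 2000 bp or more. Distance to the gene made a smaller difference, from 20.6% (19.0 to 22.3%) at 2 to 20 kb to 23.5% (21.3 to 25.9%) at 100 to 200 kb. In 3.38% of windows the letters occurred at least 2 times, against 0.947% and 1.06% at the positions moved by 5 kb.

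Around the midpoints, AP-1 matches were not densest at the midpoint itself. The median width was 600 bp, so positions 425 or 475 bp from the midpoint lay outside most enhancers. In 50-bp bins, the density was 0.674 matches per kb within 100 bp of the midpoint, reached 1.05 per kb at 475 bp before it and 1.03 per kb at 425 bp after it, and was 0.362 per kb beyond 1500 bp. Letters for TEAD and for RUNX, a family of differentiation factors, also had their highest bins 475 bp away, at 0.274 and 0.316 per kb. Letters of the GATA family, AGATAA, were as dense near the midpoint (0.661 per kb) as beyond 1500 bp (0.685 per kb).

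**Figure D1:**
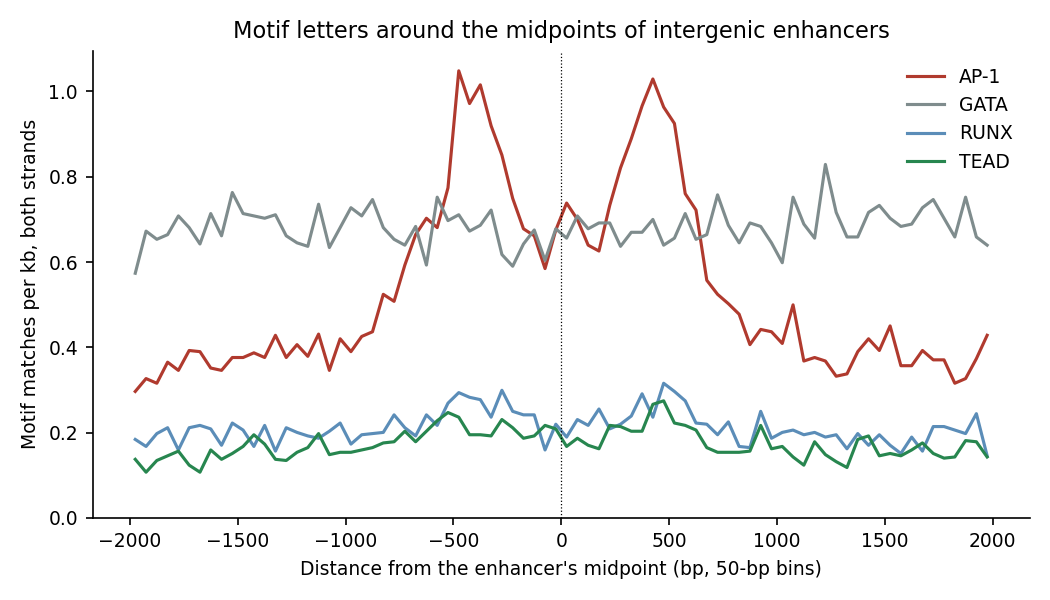
Motif matches per kb on both strands (vertical axis) in 50-bp bins by distance from the midpoint of the 7287 intergenic enhancers (horizontal axis, bp). AP-1 has 2 shoulders near 1.05 and 1.03 per kb, 475 bp before and 425 bp after the midpoint, above 0.674 per kb at the centre, while GATA is flat. The shoulders lie outside most enhancers, whose median width was 600 bp.

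The shoulders led to the gaps between neighbours, a comparison made after this profile was seen. Of the enhancers, 3707 (50.9%) bordered one of 2070 gaps of at most 1000 bp that held no bin with H3K4me3 on. The gaps had a median length of 400 bp and covered 762 kb. H3K27ac peaks of replicate 1 covered 1954 of them (94.4%) over their whole length and peaks of replicate 2 only 13, so that nearly every gap was a break in the peaks of replicate 2.

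AP-1 letters occurred at 1.49 matches per kb in the gaps, 0.616 per kb inside the enhancers and 0.351 per kb at the enhancers' coordinates moved by 5 kb. Gaps of 200 bp had 2.09 per kb, gaps of 400 to 600 bp 1.53 per kb and gaps of 800 to 1000 bp 0.674 per kb. Of the 200-bp gaps, 34.4% held the letters, as in the TSPAN2, SLC39A9, MDFIC and JUN sequences printed above. The gaps between intragenic, start-near and gene-desert regions had 1.32, 1.33 and 1.58 matches per kb, so gaps at other positions had the letters as well. GC content was 43.6% in the gaps, 45.5% inside the enhancers and 44.1% at the moved positions.

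The gap pattern depended on the replicate. With the marks of replicate 2 alone the density was 1.43 per kb in gaps and 0.605 inside the enhancers, and with replicate 1 alone it was 0.726 and 0.643. This pair of alternatives was added after the pattern was seen. Repeats were not masked, and their part was not tested.

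Among the other motifs, RUNX (TGTGGTT) had 0.404 matches per kb in gaps, 0.210 inside and 0.189 at the moved positions. TEAD (ACATTCC) had 0.304, 0.186 and 0.152 per kb, and NF-kB, the family activated by inflammatory cytokines, 0.0879, 0.0539 and 0.0394 per kb. Forkhead letters (TGTTTAC) had 0.165, 0.139 and 0.133 per kb, SOX letters (ACAATGG) 0.140, 0.130 and 0.146 per kb, and GATA letters 0.712, 0.668 and 0.687 per kb. The letters of HNF4 (CAAAGTCCA), a regulator of tubule and liver genes, were in 30 windows (0.412%) against 0.549% at the moved positions. The C/EBP letters TTGCGCAA were in 1 window, too few to compare.

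**Figure D2:**
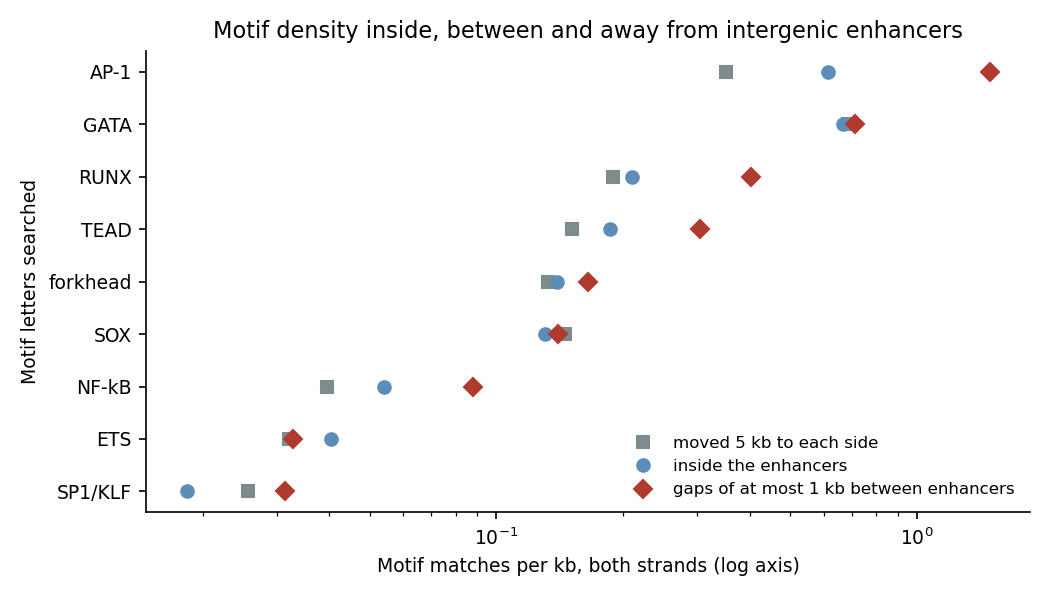
Matches per kb on both strands (horizontal log axis) for the 9 motifs with at least 20 matches in the gaps, inside the intergenic enhancers (circles), in gaps of at most 1 kb between them (diamonds) and at their coordinates moved 5 kb to each side (squares). AP-1 is the densest in gaps, at 1.49 against 0.616 inside and 0.351 moved, and the GATA symbols overlap.

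Promoter-type letters were rare at these regions. SP1/KLF letters (GGGGCGGGG) were in 0.823% of enhancer windows and 20.7% of windows at H3K4me3 regions, and ETS letters (CCGGAAG) in 1.80% and 12.1%. In 300-bp windows, which match the length of 35116 RefSeq promoters of GRCh38.p14 (250 bases before to 50 after the start), AP-1 letters were in 17.1% of enhancers and 7.71% of promoters. SP1/KLF letters had the opposite order, with 0.631% and 15.7%. The CRE letters TGACGTCA, which overlap the AP-1 letters in part, were in 0.220% of the 400-bp enhancer windows. The base composition also differed, with a median GC content of 45.5% at enhancers and 67.25% at H3K4me3 regions. Of the enhancer windows, 1.02% had a GC content of at least 50% and an observed-to-expected CpG ratio of at least 0.6, against 79.0% of windows at H3K4me3 regions.

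H3K27me3 was not found at any intergenic enhancer. None of the 7287 overlapped an H3K27me3 peak in replicate 1 or in replicate 2, which allows a share of up to 0.0412% by a limit of 3 counts and up to 0.0527% by the Wilson 95% interval. Over all regions with H3K27ac on and H3K4me3 off, 14 (0.0474%) overlapped one, a share inside that Wilson interval. At the same coordinates moved by 5 kb, 110 (1.51%) and 104 (1.43%) overlapped a peak of either replicate. The closest H3K27me3 peak was 204 bp away. With marks taken from a single replicate the overlap was 0.105% in replicate 2 and 0.0925% in replicate 1.

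H3K27me3 was more often in the neighbourhood than at intragenic or gene-desert regions. Of the intergenic enhancers, 738 (10.1%, 9.46 to 10.8%) had an H3K27me3 peak within 10 kb, compared with 7.75% of start-near, 3.25% of intragenic and 2.70% of gene-desert regions. Within 50 kb the shares were 37.8% and 34.4%, 23.8% and 17.3%. The median distance was 81.4 kb with peaks of either replicate, 95.7 kb with replicate 1 and 121 kb with replicate 2.

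**Figure D3:**
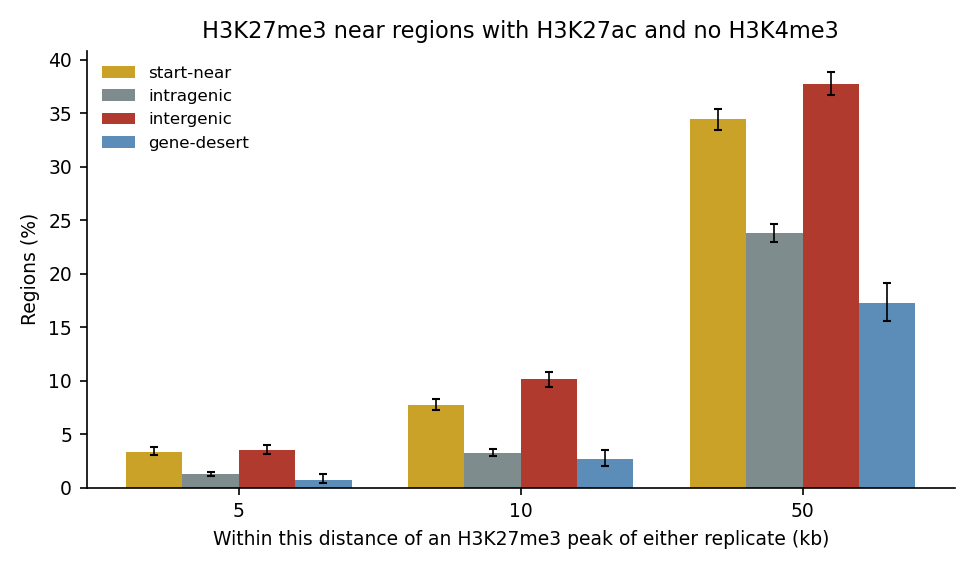
Percent of regions (vertical axis) within 5, 10 or 50 kb of an H3K27me3 peak of either replicate, for the 4 position classes, with Wilson 95% intervals. Intergenic enhancers have the highest bar at 10 kb (10.1%) and at 50 kb (37.8%).

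Nearest genes were more often expressed than protein-coding genes at large. The 7287 enhancers had 2811 different nearest protein-coding genes, of which 2786 have a value in the RNA-seq files. Of these, 71.0% (69.3 to 72.7%) were expressed, that is at 1 FPKM or more in each library, against a background of 58.9% of 19600 protein-coding genes. The share was 84.8% for the nearest genes of start-near regions, 76.9% for intragenic and 59.7% for gene-desert regions, so the intergenic enhancers lay between these classes. The median FPKM of the nearest genes of intergenic enhancers was 7.07 in library 1 and 7.36 in library 2, and that of all protein-coding genes was 3.27 and 3.39. An active promoter, with H3K4me3 and H3K27ac and without H3K27me3 in a bin within 1 kb of a TSS, was present for 61.1%, against 52.1% of all protein-coding genes. A bivalent promoter, with H3K4me3 and H3K27me3 together, was present for 4.31% against 5.06%. The libraries agreed closely, with 12 of the 2786 genes over 2-fold apart on the FPKM + 1 scale.

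Genes with a closer enhancer were more often expressed. Each gene was placed by the distance of its nearest intergenic enhancer. The expressed share was 76.3% (74.1 to 78.5%) of 1428 genes at 2 to 20 kb and 71.3% (67.9 to 74.5%) of 712 at 20 to 50 kb. It was 62.9% (58.0 to 67.5%) of 393 at 50 to 100 kb and 53.0% (46.8 to 59.0%) of 253 at 100 to 200 kb. The median FPKM was 9.83 and 10.2 in the nearest class and 1.68 and 1.57 in the farthest. The interval of the farthest class includes the background of 58.9%. The decline was smaller where a gene counted in every class in which it had an enhancer. The shares were then 75.1% of 1044 genes at 20 to 50 kb and 70.5% of 726 at 50 to 100 kb. At 100 to 200 kb, 66.0% (61.9 to 69.9%) of 536 genes were expressed by that count, above the background.

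Genes with several enhancers had higher levels. The expressed share was 68.3% for the 1165 genes with 1 enhancer and 70.0% for 1228 genes with 2 to 4. It was 82.5% (78.0 to 86.2%) for 325 genes with 5 to 9 and 82.4% (71.6 to 89.6%) for 68 genes with 10 or more. The median FPKM was 5.96 and 6.02 with 1 enhancer and 17.8 and 20.4 with 10 or more. A total of 69 genes with 10 or more enhancers held 835 (11.5%) of all intergenic enhancers.

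Much of the difference lay with genes that also had regions close by. For 1808 of the nearest genes, a start-near or intragenic region was assigned to the gene as well, and 81.9% of these were expressed. For the 1003 genes with intergenic enhancers and no such region, the share was 51.1% (48.0 to 54.2%). Their median FPKM was 1.37 and 1.35. The 58.9% of all protein-coding genes is not a like background for them, because it includes genes with start-near or intragenic regions. The share over all genes without such regions was not computed. Where an H3K27me3 peak lay within 10 kb of an enhancer, 63.3% of 474 nearest genes passed and 11.8% had a bivalent promoter, compared with 72.6% and 3.20% of 2467 genes with an enhancer free of H3K27me3 within 10 kb. A gene with several enhancers can be in both sets.

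**Figure D4:**
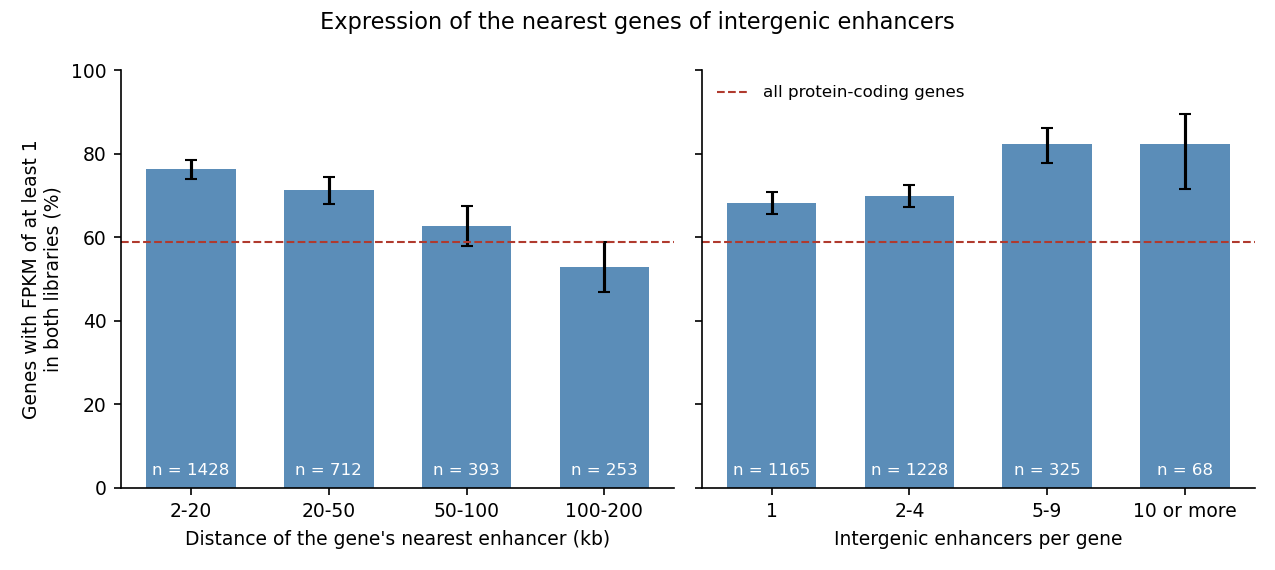
Percent of nearest genes at 1 FPKM or more in each library (vertical axis), by the distance of the gene's nearest intergenic enhancer in kb (left) and by its number of intergenic enhancers (right), with Wilson 95% intervals, the number of genes in each bar and the 58.9% of all protein-coding genes as a dashed line. The bars descend from 76.3% to 53.0% with distance and stand at 82.5% and 82.4% for genes with 5 or more enhancers.

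The nearest gene was the more highly expressed of the flanking pair in a small majority of cases. Among 7190 enhancers with a measured protein-coding gene on each side, the gene with the nearer TSS had the higher mean FPKM for 4024 (56.0%, 54.8 to 57.1%), with 55.7% in library 1 and 55.8% in library 2. The share was 57.6% at 2 to 20 kb and 54.7% at 100 to 200 kb. Both flanking genes were expressed for 50.3% of the enhancers, and at least 1 of them for 90.6%. For 662 enhancers (9.21%) the nearest gene was below 0.1 and the other at 1 or above in both libraries, and for 1120 (15.6%) the reverse held. No contact data were used here.

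The genes with the most intergenic enhancers were TRIB1, KLF6, BCAS1, OGFRL1, NRP1, CLDN23, CDH6, PMAIP1, TNS3 and CAMK1G. TRIB1, a pseudokinase that directs protein degradation, had 23 enhancers at 6.41 to 180 kb and FPKM of 30.6 and 31.2. KLF6, a zinc finger factor induced by injury, had 20 at 19.2 to 139 kb and FPKM of 29.7 and 28.1. The 20 enhancers of KLF6 covered 35.2 kb and held 31 AP-1 matches (0.881 per kb, against 0.616 per kb over all intergenic enhancers), with at least 1 match in 10 of them. CDH6, a cadherin of developing proximal tubules, had 16 enhancers, all upstream at 20.3 to 173 kb, and FPKM of 112 and 120.

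For 3 of these 10 genes, expression was low. BCAS1 had 20 enhancers and FPKM of 0.605 and 0.722. The tight junction gene CLDN23 had 17 and FPKM of 0.912 and 0.817. CAMK1G, a calcium-dependent kinase, had 15 enhancers, FPKM of 0.0202 and 0, and a promoter with H3K27me3 alone. The other 7 lay between 11.8 (PMAIP1, library 1) and 120 (CDH6, library 2), and PMAIP1, which promotes cell death, differed between libraries at 11.8 and 22.1.

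Many enhancers lay close to others. Joining enhancers with gaps of at most 12.5 kb gave 3839 chains, of which 2011 were a single enhancer, 1075 a pair and 753 of 3 or more, and the last held 3126 enhancers (42.9%). The longest, on chromosome 20 from 52482401 to 52551600, had 16 enhancers over 69.2 kb, 37.3% of it marked. It lay between ZNF217, at FPKM of 17.2 and 17.8, and BCAS1, to which all 16 were nearest, at 0.605 and 0.722. A chain of 14 on chromosome 10 lay between DDIT4, a stress-induced inhibitor of mTOR, at 73.3 and 63.6, and DNAJB12 at 21.2 and 20.7.

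The most densely marked of the longest chains lay upstream of CXCL8, which encodes the neutrophil chemokine interleukin-8. It had 11 enhancers on chromosome 4 from 74563201 to 74601600 and was marked over 80.2% of 38.4 kb. CXCL8 stood at FPKM of 62.9 and 56.9, and RASSF6 on the other side at 0.565 and 0.627. The 12 enhancers of CXCL8 held 17 AP-1 matches, or 0.545 per kb, against 0.616 per kb over all intergenic enhancers. A chain of 10 next to UGCG, which makes glucosylceramide, was followed by one of 10 nearest to SUSD1. UGCG stood at 115 and 120 and SUSD1 at 7.29 and 8.43. These chains and flanking genes were picked with their values in view.

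The widest enhancer was 27600 bp wide and lay 70.9 kb upstream of DCBLD2, a membrane receptor gene with FPKM of 342 and 360 (chr3:98677601-98705200). The next was the 14400-bp enhancer 16.6 kb upstream of CXCL8, followed by one of 13800 bp downstream of UGCG, one of 13400 bp upstream of the integrin gene ITGB6 (FPKM of 11.6 and 12.9), and enhancers of 13400 and 12600 bp upstream of PLCB4 (39.4 and 42.5). The 11600-bp enhancer 36.9 kb downstream of AMOTL2, an angiomotin gene, held 15 AP-1 matches. A 12000-bp enhancer had as nearest gene AREGB, a second amphiregulin locus of this build with no value in the RNA files, and AREG on the other side had FPKM of 43.1 and 42.6. The 10 widest were completed by 11200-bp enhancers at NUAK2 (32.2 and 32.3) and ABCA1 (18.5 and 20.8). The DCBLD2 enhancer overlapped an H3K4me3 peak of replicate 1 and contained an annotated TSS, 8501 bp from its midpoint. The 12600-bp PLCB4 enhancer overlapped H3K4me3 peaks of both replicates and contained a TSS 5454 bp from its midpoint. Those at ITGB6, AREGB, AMOTL2, NUAK2 and ABCA1 overlapped such a peak in replicate 1 only. The CXCL8, UGCG and 13400-bp PLCB4 enhancers overlapped none.

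An enhancer of 10000 bp on chromosome 17 from 57916601 to 57926600 contained MIR21 (57918627 to 57918698), the gene of a microRNA known from kidney injury, and was named after its position was seen. It began inside VMP1, whose FPKM was 59.7 and 63.1, and had its midpoint beyond the end of that gene. This enhancer overlapped H3K4me3 peaks of both replicates, as did 3.28% of intergenic enhancers. It contained an annotated TSS 2974 bp from its midpoint. The microRNA itself was not measured in these files. It was 1 of 2 intergenic enhancers that overlapped an annotated microRNA gene.

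Nearest genes were also read from 9 lists of genes chosen with earlier results of these data known. Of all annotated protein-coding genes, 14.0% were nearest to at least 1 intergenic enhancer. In the lists, the share ran from 5 of 25 proximal tubule function genes to 20 of 26 growth factors, receptors and cell cycle genes. The counts describe lists picked for genes of interest in this line and are not independent evidence. The median of mean FPKM was higher in genes with an enhancer than in those without for 7 of the 9 lists, from 25.4 against 24.6 in growth factors, receptors and cell cycle genes to 121 against 17.6 in matrix and adhesion genes. It was lower in YAP-TEAD genes (24.0 against 34.1) and in cytokine and NF-kB genes (7.88 against 10.5).

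Among nephron transcription factors, 9 of 23 had an intergenic enhancer, and 5 of the 9 were expressed, against 3 of the 14 without an enhancer. PAX8, a factor of kidney development, had 2, and FPKM of 100 and 104. PAX2, TFCP2L1 and OSR1 had enhancers with FPKM from 0.0398 (TFCP2L1, library 1) to 0.485 (OSR1, library 2), and the promoters of all 3 were bivalent.

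Among the 21 AP-1 and immediate early factors, 13 had enhancers, and all 13 were expressed, as were 7 of the 8 without. KLF6 led by number. IER3, a stress-induced survival gene, had the highest FPKM of them, 155 and 134, with 8 enhancers upstream at 3.28 to 42.9 kb. The AP-1 subunits JUN, JUND, FOS, FOSL1 and FOSL2 had 5, 4, 3, 1 and 7 enhancers and mean FPKM of 87.4, 60.2, 2.34, 24.3 and 55.6. These 5 were picked after their values were seen, because of the AP-1 letters.

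Among the 13 YAP-TEAD genes, 8 had enhancers, and all 8 were expressed, as were all 5 without. AMOTL2 had 7 enhancers (67.6 and 53.6). CCN1, a secreted matrix protein and a common readout of YAP, had 6, all downstream at 24.4 to 48.7 kb, and FPKM of 814 and 790. Its 6 enhancers held 4 TEAD and 6 AP-1 matches, the latter at 0.448 per kb.

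Of 26 matrix and adhesion genes, 17 had enhancers, and all 17 were expressed, as were 8 of the 9 without. FN1, fibronectin, had 7 enhancers upstream at 3.41 to 183 kb and FPKM of 2333 and 2343. COL4A1, a basement membrane collagen, had 10 at 24.5 to 163 kb and FPKM of 329 and 337. Of 17 cadherins and mesenchymal switch genes, 7 had enhancers and all 7 were expressed, against 6 of the 10 without, with CDH6 having the most and KRT19, an epithelial keratin, the highest at 123 and 123 with 4 enhancers.

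Of the 25 proximal tubule function genes, 5 had enhancers, and all 5 passed 1 in both libraries, against 5 of the 20 without. CYP24A1, which breaks down vitamin D, had 7 at 11.6 to 41.5 kb downstream, and FPKM of 22.0 and 24.4. DAB2, an endocytic adaptor, had 3, and FPKM of 11.6 and 11.98.

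Of the 26 growth factors, receptors and cell cycle genes, 20 had enhancers, and all 20 were expressed, against 4 of the 6 without. VEGFC, a lymphatic growth factor, had 13 (26.0 and 25.2), and MET, the receptor of hepatocyte growth factor, had 6 (46.1 and 51.6). Of 18 cytokine and NF-kB genes, 12 had enhancers, and 8 of the 12 were expressed, against 4 of the 6 without. CXCL1, named after its value was seen, had 7 enhancers and was listed at 0 in both libraries. Of 18 tubule injury and repair genes, 10 had enhancers, and all 10 were expressed, against 5 of the 8 without. TPM1, a tropomyosin, had 11 (601 and 649), and S100A6, a calcium-binding protein, had 4 (983 and 942).

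**Figure D5:**
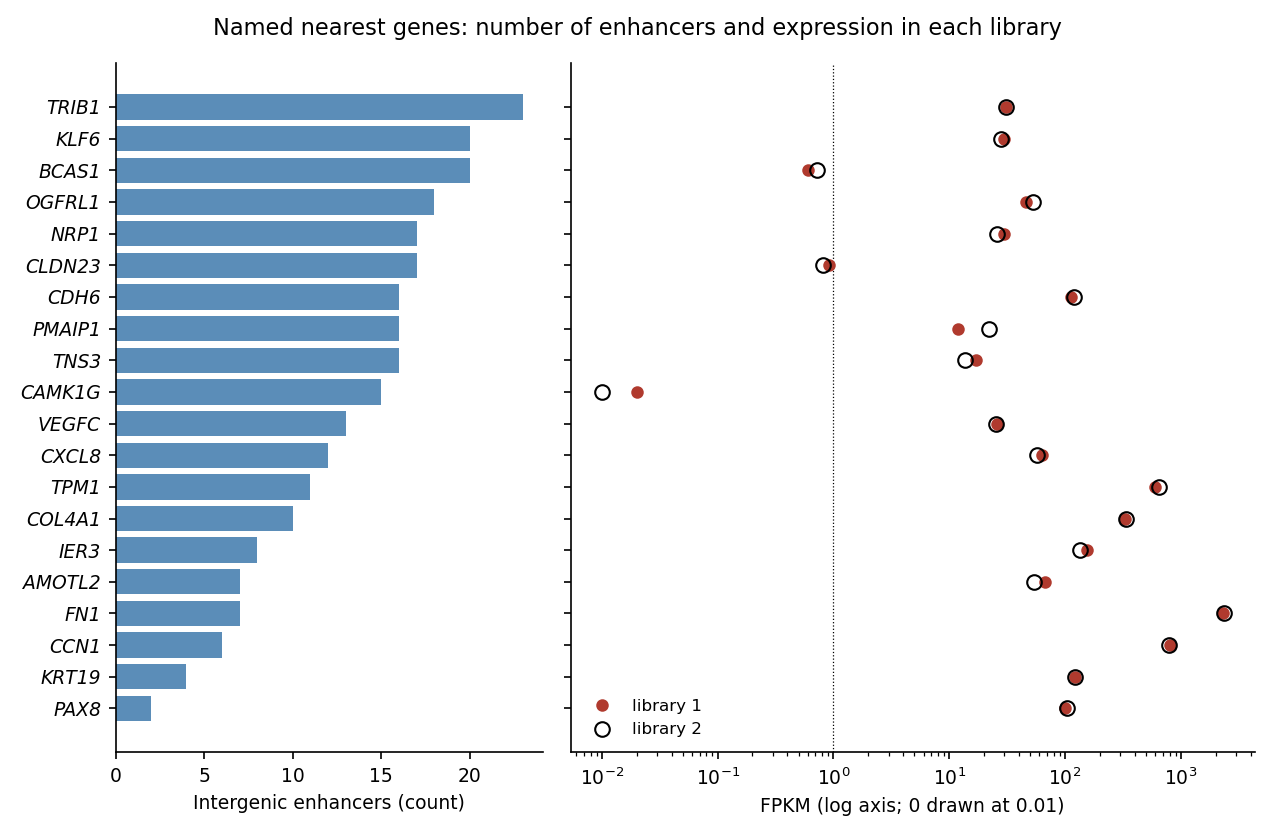
Number of intergenic enhancers (left, count) and FPKM in library 1 (filled) and library 2 (open) on a log axis (right) for the 10 genes with the most enhancers and 10 list genes, with a dotted line at 1 FPKM and the value of 0 of CAMK1G in library 2 drawn at the left end of the axis. BCAS1, CLDN23 and CAMK1G lie below 1 in both libraries although they have 20, 17 and 15 enhancers, and FN1 is the highest with 7.

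The 10 nearest genes of highest FPKM had between 1 and 7 intergenic enhancers, where the median over all nearest genes was 2. TMSB4X, an actin-binding peptide gene, stood at 3253 and 3071 with 4 enhancers. EEF1A1, a translation factor, had 1 at 54.4 kb and FPKM of 2287 and 2378. The glycolytic genes ENO1 (1947 and 1867) and PKM (797 and 788) had 4 and 1, the metallothionein MT2A (1700 and 1684) had 1, PSAP (787 and 797) had 3 and RPSA (804 and 773) had 1. FN1, CCN1 and S100A6, with 7, 6 and 4 enhancers, were also among these 10.

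Other genes named by the study were nearest to intergenic enhancers. ITGA3, an integrin subunit, had 4 at 4.33 to 28.8 kb upstream and FPKM of 148 and 141. MTX1, a mitochondrial import gene, had 3 at 9.36 to 11.6 kb downstream and FPKM of 12.6 and 13.2. WWOX had 3, all over 173 kb from its nearest TSS, and FPKM of 6.73 and 5.84. In 2 list genes named after their values were seen, the libraries were far apart. MYC had 14 enhancers and FPKM of 5.75 and 50.4, and ENAH, an actin regulator, had 4 and FPKM of 37.3 and 121.

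Some of the enhancers lay in noncoding genes. The midpoint of 1806 (24.8%) lay in the body of a long noncoding RNA (lncRNA) gene, and 5380 (73.8%) lay in no annotated gene. Of 688 such lncRNA genes with a value, 79 (11.5%, 9.31 to 14.1%) were expressed, against a background of 4.86% of 14097 lncRNA genes. The highest were ZFAS1 (63.1 and 59.1, with 2 enhancers), LINC00839 (21.1 and 21.3, with 2), NUTM2A-AS1 (17.7 and 20.8, with 1), LINC00958 (19.2 and 16.1, with 1) and LINC00511 (15.4 and 18.7, with 2). PVT1, chosen after its values were seen, held 13 midpoints and stood at 10.5 and 7.56. An lncRNA gene can be transcribed from an enhancer or merely span it, and the data do not tell these apart.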

How the data were processed

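Peak lists come from ChIP-seq reads that the authors trimmed and placed on hg19 (Bowtie2), with unique alignments passed to MACS2, 1 list per replicate. The deposited lists hold chromosome, start and end of each peak and no score, so the signal behind a single peak is unknown. The paper gives sequencing depth and the fraction of reads in peaks per replicate. By its numbering, that fraction was higher in replicate 1 than in replicate 2 for H3K27ac and H3K4me3, and low in both for H3K27me3. The part of this in the results was not tested. The RNA-seq files hold FPKM and TPM for every transcript, which the authors obtained with HISAT2 and StringTie (version 1.3.3), and per the file headers use GENCODE 27 on GRCh38. FPKM was summed per gene and joined by Ensembl identifier to GENCODE 44 on GRCh37, in which 20098 protein-coding genes are annotated and 19600 matched. Neither FPKM nor peak limits are counts, and no count model was used. Input DNA and HiChIP, 3 of 11 samples, were not analysed here.

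Bins, regions, distances, chains and motif matches were computed in Python (version 3.11.15) using pysam 0.24.0, pandas 2.3.3 and numpy 2.4.6, figures were drawn with matplotlib 3.10.9, and the functions were tested on simulated data. The nearest TSS was that of any annotated protein-coding transcript. Chains joined regions at most 12.5 kb apart. Motifs were exact letters on both strands of 400 bp at the midpoint, for 15 motifs, some of them longer patterns with unspecified letters. FPKM levels are given per library. The series has 1 condition and 2 replicates, so no test was made, and Wilson 95% intervals cover counting error only, neighbouring regions and genes not being independent.

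The members, gene lists and comparisons were chosen with earlier results of these data known. Genes were named by rule, namely the 10 with the most enhancers, the 10 of highest FPKM, in each list the gene with the most enhancers and the gene of highest FPKM, genes the study names, and the 5 noncoding host genes of highest FPKM. Printed sequences leave out chromosome 8. Genes named outside it are said to be, and some that it names are not reported here. Alternatives covered replicates, the bin rule, joining, width, distance and annotation limits, TPM, low FPKM, the pseudocount of 1 on the log10 scale, windows and chain gaps.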

Additional observations from a re-analysis of the deposited data

How the results depend on the processing

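Of 105 alternative values over 9 results, 54 stayed within a set limit and 51 moved beyond it, and the cause was not tested. The limit was the spread or interval, except for the number of enhancers, where it was a fixed fold change. For that number, 8 values stayed within the limit and 2 moved beyond it. No paired analysis was possible because the series has 1 condition and no contrast between groups. With marks from a single ChIP-seq replicate, the number of enhancers ranged from 7620 to 14055, the share with H3K27me3 from 0.0925 to 0.105%, the nearest genes with FPKM of at least 1 from 68.6 to 70.6%, their median FPKM from 6.01 to 6.96, their mean log10(FPKM + 1) from 0.825 to 0.868, AP-1 windows from 21.3 to 27.8% and enhancers in chains of 3 or more from 44.9 to 47.8%. Replicate 1 alone gave the 14055. Leaving out an RNA-seq library gave a median FPKM of 7.07 to 7.36 and a mean log10 value of 0.8734 to 0.8787.

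Number of enhancers was 4596 at widths of at least 600 bp. Nearest genes with FPKM of at least 1 were 72.8% at widths of at least 600 bp (72.77%), 72.84% within 100 kb, 75.6% with TPM and 74.9% counted per enhancer. In the same order their median was 8.05, 8.04, 19.98 and 9.45, and their mean log10 value 0.914, 0.910, 1.19 and 0.959. With H3K4me3 off in both replicates, the median was 7.45, the mean log10 value 0.885, AP-1 windows 20.2% and chains 51.3%. With the 2-kb limit set on protein-coding TSSs alone, the median was 7.003, the mean log10 value 0.870 and chains 46.8%. Outside every gene body, the median was 7.85 and the mean log10 value 0.900 (0.8998). For genes of mean FPKM of at least 0.1 these were 11.1 and 1.08, and a pseudocount of 0.1 gave a mean log10 value of 0.615.

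AP-1 windows were 25.4% where 1 bp of a bin sufficed, 26.0% (25.96) with bins joined across a gap, 26.8% at widths of at least 600 bp, 11.7% in 200 bp and 33.1% in 600 bp. In the same first 3 settings, chains of 3 or more held 33.4, 32.7 and 32.8%, and they held 41.1% where all 200 bp had to be covered, which gave a mean log10 value of 0.884, and 31.1% with a chain gap of 5000 bp. The share of enhancers whose nearest gene had the higher FPKM stayed within its interval in all 13 alternatives. AP-1 matches in gaps, with alternatives chosen after seeing the data, had 1.71 per kb at gaps of at most 600 bp, 1.11 at 2000 bp, 1.31 with all 200 bp covered, and 0.726 to 1.43 with a single replicate.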
